A study of Caenorhabditis elegans with 2 samples.

Results

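The regions of the genome bound by a GFP-tagged form of UNC-98 in young *Caenorhabditis elegans* larvae were examined at 10 genes for constitutive chaperones and co-chaperones, of 19973 protein-coding genes in all. These genes were chosen by name, with earlier results of these data known, so a count among them describes these genes only. They encode 6 cytosolic proteins (*hsp-1*, *hsp-90*, *hsp-110*, *bag-1*, *dnj-13* and *sti-1*), 2 of the endoplasmic reticulum, or ER (*hsp-3* and *hsp-4*), and 2 of mitochondria (*hsp-6* and *hsp-60*). A gene was counted as bound in a list when the summit of a listed region lay within a promoter window, which spans the 1000 bp before and the 500 bp after the annotated 5′ end of any of its coding transcripts.

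The assay was ChIP-seq, in which chromatin fragments carrying a protein are precipitated and sequenced. It was run with an anti-GFP antibody on whole L1 larvae, 6 hours old and starved after bleaching, in 2 biological replicates that form 1 group. The strain, OP85, carries the transgene wgIs85, in which *unc-98* is joined to TY1, EGFP and 3xFLAG tags, together with a wild-type *unc-119* gene in an *unc-119(ed3)* mutant. UNC-98 has C2H2 zinc fingers and is known from the structures that anchor muscle filaments, as well as from nuclei. Signal from whole larvae cannot be assigned to a cell type, and no library from larvae without the tag was used here. Regions were deposited per replicate and for both replicates together, each with a signal score of unstated scale and an irreproducible discovery rate (IDR), an estimate of how many listed regions would fail to appear again. Read counts were not used here, so the depth of each library is unknown. The list named conservative held 728 regions, a second list for the series held 790, and those of replicates 1 and 2 held 577 and 394, each at an IDR of 0.01 or lower. The longer ranked lists, from which these were cut, held candidate regions of any IDR.

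Chaperones hold other proteins in a foldable state or help them fold. In the cytosol Hsp70 binds short exposed stretches of a client, J-domain proteins bring clients to it and start its ATP cycle, and nucleotide exchange factors let the client go, while Hsp90 takes over some clients at a late stage of folding. The ER and the mitochondrial matrix have Hsp70 proteins of their own, and mitochondria also fold proteins inside the barrel of the chaperonin Hsp60. These genes are expressed without stress, and many of them are induced further by it, in the cytosol through the factor HSF-1, which binds inverted GAA units, and in the ER through the unfolded protein response.

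A summit lay in the promoter window of 7 of the 10 genes in the conservative list, where 3.16% of all coding genes were bound. These were all 6 cytosolic genes, 0 of the 2 ER genes and 1 of the 2 mitochondrial genes, *hsp-60*. The sequence at the summits is shown for those genes and for *hsp-3*, which was bound in the second list, because the positions of the motifs described further on can be read from it; *bag-1* is not shown. Each line is taken from the RefSeq copy of the genome build ce11, runs in the direction of the chaperone gene from 100 bases before to 100 bases after the summit, and stops short of any exon of a coding gene. Capitals mark matches to the motifs GAANNTTC and GAGAG, to CCACG, to TGACGTG and to TATAAA, on either strand.

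*hsp-1* (chrIV:17278467-17278667, plus strand): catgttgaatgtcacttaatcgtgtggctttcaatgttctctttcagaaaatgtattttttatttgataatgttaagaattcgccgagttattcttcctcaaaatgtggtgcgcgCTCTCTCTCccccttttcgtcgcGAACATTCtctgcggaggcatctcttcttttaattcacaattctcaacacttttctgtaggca
*hsp-90* (chrV:14685675-14685875, plus strand): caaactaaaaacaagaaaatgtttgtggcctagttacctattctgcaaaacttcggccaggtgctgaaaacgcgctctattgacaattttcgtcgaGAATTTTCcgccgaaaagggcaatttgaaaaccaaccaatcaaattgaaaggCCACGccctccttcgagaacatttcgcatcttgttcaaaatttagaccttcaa
*hsp-110* (chrIII:8447051-8447251, minus strand): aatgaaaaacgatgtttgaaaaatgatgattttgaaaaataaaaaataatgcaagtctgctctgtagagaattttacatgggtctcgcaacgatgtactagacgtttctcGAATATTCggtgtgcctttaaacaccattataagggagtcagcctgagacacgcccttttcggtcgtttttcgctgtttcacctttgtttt
*dnj-13* (chrII:11545409-11545609, plus strand): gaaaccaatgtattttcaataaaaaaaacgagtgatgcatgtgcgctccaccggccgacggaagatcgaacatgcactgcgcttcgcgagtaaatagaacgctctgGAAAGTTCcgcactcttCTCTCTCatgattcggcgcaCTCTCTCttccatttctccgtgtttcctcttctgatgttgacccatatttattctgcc
*sti-1* (chrV:773321-773517, plus strand): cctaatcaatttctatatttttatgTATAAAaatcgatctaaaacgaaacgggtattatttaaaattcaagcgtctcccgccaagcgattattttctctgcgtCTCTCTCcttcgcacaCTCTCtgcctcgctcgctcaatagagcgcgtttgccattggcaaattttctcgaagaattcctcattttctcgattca
*hsp-60* (chrIII:1619051-1619251, plus strand): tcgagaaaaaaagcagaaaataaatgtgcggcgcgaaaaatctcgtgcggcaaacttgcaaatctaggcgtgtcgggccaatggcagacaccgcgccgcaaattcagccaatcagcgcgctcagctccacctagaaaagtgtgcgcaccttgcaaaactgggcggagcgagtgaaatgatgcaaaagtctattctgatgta
*hsp-3* (chrX:6092125-6092272, minus strand): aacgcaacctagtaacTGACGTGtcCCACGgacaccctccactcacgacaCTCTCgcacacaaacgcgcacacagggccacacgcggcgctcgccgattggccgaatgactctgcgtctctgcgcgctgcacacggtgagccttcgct

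*hsp-90* encodes the cytosolic Hsp90 and had the highest signal of the 10 genes. Its region (V, 14685677 to 14685839) had a signal of 363.5 in the conservative list, at rank 21 of 728. The signal was 197 in replicate 1 and 172 in replicate 2, at ranks 22 of 577 and 16 of 394 in the thresholded lists. Scores of separate lists share no stated scale, so each value is read within its own list; among all 19973 genes, only 0.145% had a stronger candidate in their window in replicate 1, and 0.100% in replicate 2. The summit did not lie at the start of the longest *hsp-90* transcript. It lay 857 bp downstream of that 5′ end, in an intron, 385 bp upstream of a second annotated 5′ end and 389 bp upstream of the first coding base. The candidate nearest to the start of the long transcript, 304 bp upstream of it, had a series signal of 36.7 against 363.5 at the intron. *C47E8.4*, on the other strand, begins 290 bp from the same summit, which is nearer to it than any *hsp-90* start.

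*hsp-1* encodes the constitutive cytosolic Hsp70. Its region (IV, 17278409 to 17278724) had a series signal of 216 at rank 106 of 728, with 106.5 in replicate 1 and 94.3 in replicate 2. Both values were above the median of their thresholded list, which was 70.7 in replicate 1 and 72.2 in replicate 2. The summit lay 392 bp upstream of the annotated 5′ end in intergenic DNA, and no other coding gene had it in its window. The non-coding gene *F26D10.23*, on the same strand, was nearer and ended 65 bp before the summit. The annotated 5′ end of *hsp-1* precedes the start codon by a few bases, as the first coding base lay 397 bp from the summit. Many *C. elegans* messages receive their 5′ end by trans-splicing, so an annotated 5′ end can lie downstream of the place where transcription starts.

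The genes for nucleotide exchange factors and a J-domain protein that work with Hsp70 had lower signals than *hsp-90*, as did all other members. *bag-1*, a BAG-domain exchange factor, had a series signal of 241.5 at rank 79 of 728 (I, 6564585 to 6564712), with 152 in replicate 1 and 98.04 in replicate 2. Its summit lay 198 bp upstream of the 5′ end. *hsp-110*, a larger relative of Hsp70 that also acts as an exchange factor, had a series signal of 129 at rank 275 of 728 (III, 8446993 to 8447308), with 73.9 in replicate 1 and 49.7 in replicate 2. The replicate 1 region was past the threshold and the replicate 2 region was not, with a −log10 IDR of 0.50 where the threshold lies at 2. The summit lay 242 bp upstream of *hsp-110* and 202 bp upstream of *rpn-3*, a proteasome subunit gene on the other strand, and 56 bp upstream of the non-coding gene *C30C11.14*, so the region cannot be assigned to any of these genes alone.

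*dnj-13*, a J-domain protein gene, showed the opposite pattern of thresholds. Its region (II, 11545351 to 11545666) had a series signal of 101.5 at rank 390 of 728, just under the list median of 105. The signal was 58.9 in replicate 1, with a −log10 IDR of 1.92 just below the threshold, and 54.4 in replicate 2, with 2.42 just above it. The summit lay 192 bp upstream of *dnj-13*. It also lay in an intron of a long transcript of *dhgd-1*, on the other strand, within the non-coding gene *F54D5.22*, and 681 bp upstream of *F54D5.9*.

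*sti-1* encodes the adaptor that links Hsp70 to Hsp90 and had the weakest bound region. That region (V, 773263 to 773578) had a series signal of 84.7 at rank 504 of 728 and a −log10 IDR of 2.06. The signal was 55.9 in replicate 1, past its threshold, and 29.8 in replicate 2, where 6.94% of all genes had a stronger candidate and the −log10 IDR was 0.54. A further candidate lay inside the gene, 407 bp downstream of the 5′ end in the series list, with a signal of 58.8. In replicate 1 this inner candidate had 22.8, well under the 55.9 of the promoter candidate, and in replicate 2 it had 28.9, close to the 29.8 there. The promoter summits of the replicates lay 89 and 95 bp upstream of the 5′ end.

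**Figure D1:**
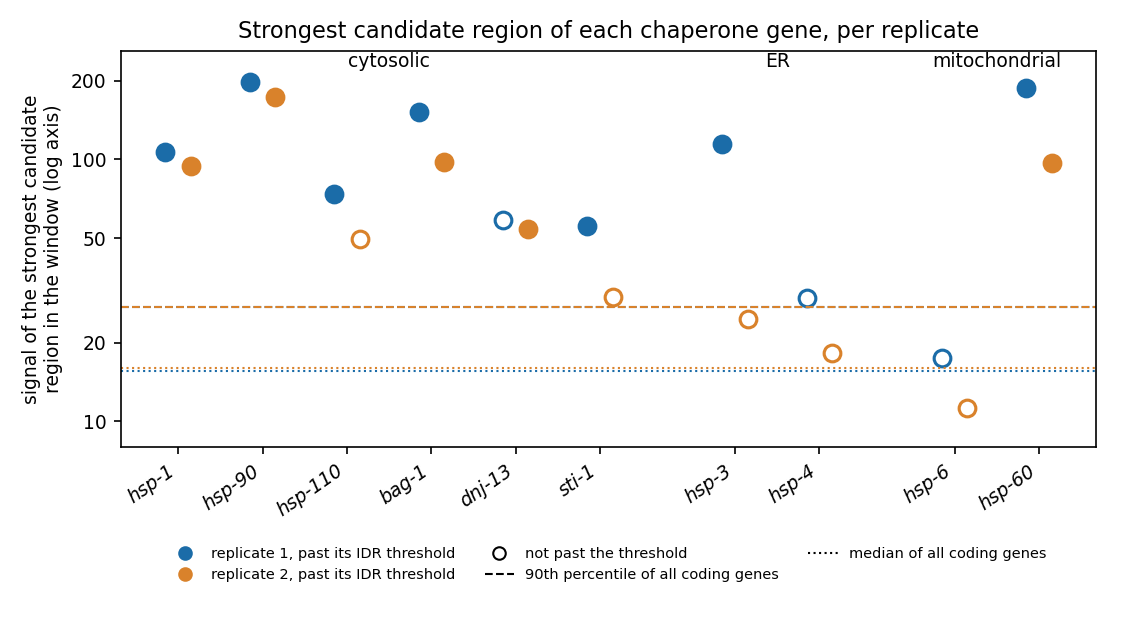
Signal of the strongest candidate region in the promoter window of each of the 10 genes, in the ranked list of replicate 1 (blue) and of replicate 2 (orange), on a log axis; filled points are in the thresholded list of that replicate, and lines give the median and 90th percentile over all coding genes. The 6 cytosolic genes lie above the 90th percentile in both replicates. *hsp-3* stands at 114 in replicate 1 and 24.6 in replicate 2, and *hsp-6* lies near or below the median. The *hsp-3* point of replicate 2 is a candidate at another position inside the gene, 354 bp downstream of a different, internal annotated 5′ end.

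The ER chaperones *hsp-3* and *hsp-4* both encode BiP, the Hsp70 of the ER lumen, and neither was bound in the conservative list. *hsp-3* had a region (X, 6092014 to 6092329) with its summit 48 bp upstream of the 5′ end in the second series list, in which 3.38% of all coding genes were bound. Its signal was 115 there, at rank 325 of 790 with a −log10 IDR of 3.13. In replicate 1 the signal was 114, at rank 122 of 577, and 0.701% of all genes had a stronger candidate. In replicate 2 no candidate of any IDR overlapped the region. The nearest summits in that list lay 559 bp and 1897 bp away, with signals of 16.6 and 5.55. The *hsp-3* region therefore rests on replicate 1.

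*hsp-4*, whose induction is widely used as a sign of the unfolded protein response of the ER, was in none of the 4 thresholded lists. Its strongest candidate had a signal of 29.6 in replicate 1 and 18.3 in replicate 2. These candidates lay 116 bp downstream and 328 bp upstream of an internal annotated 5′ end, so both were inside the gene. A stronger candidate was present at 7.33% of all genes in replicate 1 and at 38.1% in replicate 2. The replicate 2 list also had a candidate that overlapped the strongest one of replicate 1, with a signal of 14.8, so the replicates differed in which candidate was strongest. The median over all genes was 15.6 in replicate 1 and 15.9 in replicate 2. Having some candidate is no mark of binding, since 86.2% of all coding genes had one in the ranked list of replicate 1 and 88% in that of replicate 2.

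The mitochondrial genes differed from each other. *hsp-60*, the chaperonin gene, had a region (III, 1619106 to 1619202) with a series signal of 277 at rank 45 of 728, the second highest of the 10 genes. The signal was 187 in replicate 1 and 96.7 in replicate 2, past the threshold in each. The summit lay 591 bp upstream of *hsp-60*, farther than at any other bound member, and 222 bp upstream of *Y22D7AL.10*, which RefSeq names as a mitochondrial heat shock protein of 10 kDa. In bacteria and mammals the protein of this size is the lid of the chaperonin barrel. These genes stand head to head with 812 bp between them, so the region lies in the stretch they share. *hsp-6*, which encodes the mitochondrial Hsp70, was in none of the thresholded lists. Its strongest candidate had 17.5 in replicate 1 and 11.2 in replicate 2, and 40.1% and 72.5% of all genes had a stronger one. With 2 genes each, the ER and mitochondrial groups were too small to compare with the cytosolic group by a test, and none was made.

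**Figure D2:**
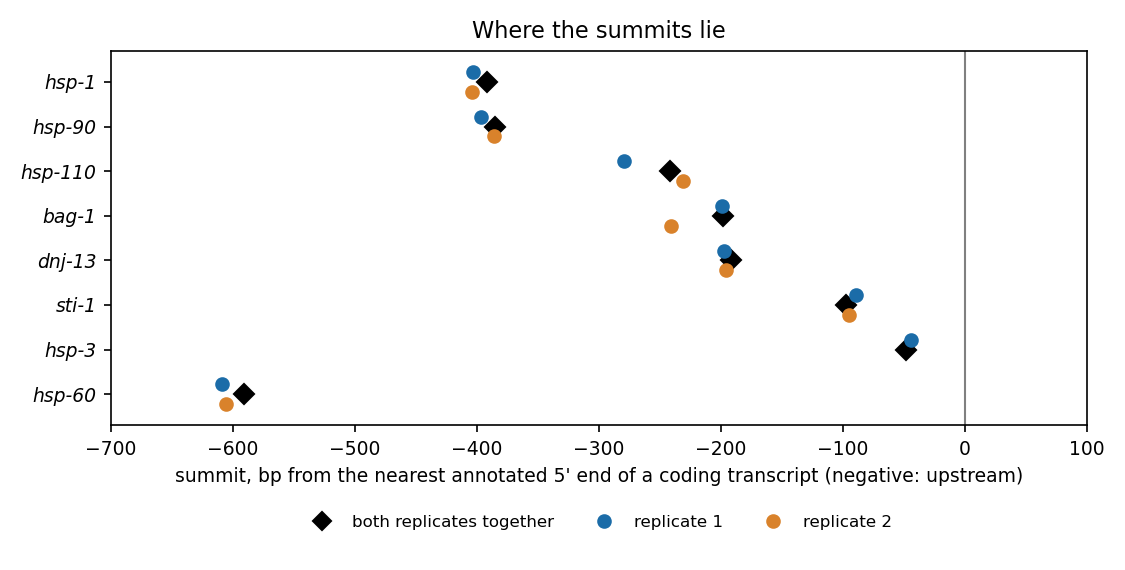
Distance of the summit from the nearest annotated 5′ end of a coding transcript of the gene, in base pairs, for the 7 genes bound in the conservative list and for *hsp-3* (second list); diamonds are both replicates together and circles the overlapping candidates in each replicate's ranked list. All summits lie upstream. The diamonds run from 591 bp at *hsp-60* to 48 bp at *hsp-3*, and *hsp-3* has no replicate 2 point.

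In the 7 bound genes the conservative summits lay 97 to 591 bp upstream of the nearest 5′ end, with a median of 242 bp upstream. Over the 477 conservative regions in any promoter window the median was 186 bp upstream. The summit called in each replicate stayed near that of the series. At *hsp-1* it lay 403 bp upstream in replicate 1 and 404 bp in replicate 2, and at *dnj-13* 197 and 196 bp. The largest gap between replicates was at *hsp-110*, where the summits lay 279 and 231 bp upstream in replicates 1 and 2. Of the 7 regions, those of *hsp-1*, *bag-1* and *sti-1* lay in the window of no other coding gene, and the other 4 were shared. Among all 477 promoter regions, 182 (38.2%) counted for several genes.

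The number of bound members changed with the list. In the replicate 1 list, where 2.89% of all coding genes were bound, 7 members were bound, with *hsp-3* present and *dnj-13* absent. In the replicate 2 list, where 1.79% were bound, 5 were bound, namely *hsp-1*, *hsp-90*, *bag-1*, *dnj-13* and *hsp-60*. The genes in all 4 thresholded lists were *hsp-1*, *hsp-90*, *bag-1* and *hsp-60*. The same 4 remained at an IDR of 0.001, which left 1.45% of all coding genes bound. Among regions above the median signal of the conservative list, *dnj-13* and *sti-1* dropped out, which left 5 members beside 1.92% of all coding genes. When each region was given only to the gene with the nearest 5′ end, 4 members were bound as well, but these were *hsp-1*, *bag-1*, *dnj-13* and *sti-1*, beside 2.25% of all coding genes; *hsp-90*, *hsp-110* and *hsp-60* went to their neighbours. With a window of 500 bp on either side *hsp-60* was lost, which left 6 members beside 2.58% of all coding genes, and with the outermost 5′ end alone *hsp-90* was lost, which left 6 beside 2.96%. The same 7 members as in the main count were bound with a window of 2000 bp upstream (4.12% of all coding genes), with any base of a region in the window (3.35%), and with regions past the IDR threshold that the authors' list leaves out (3.17%).

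**Figure D3:**
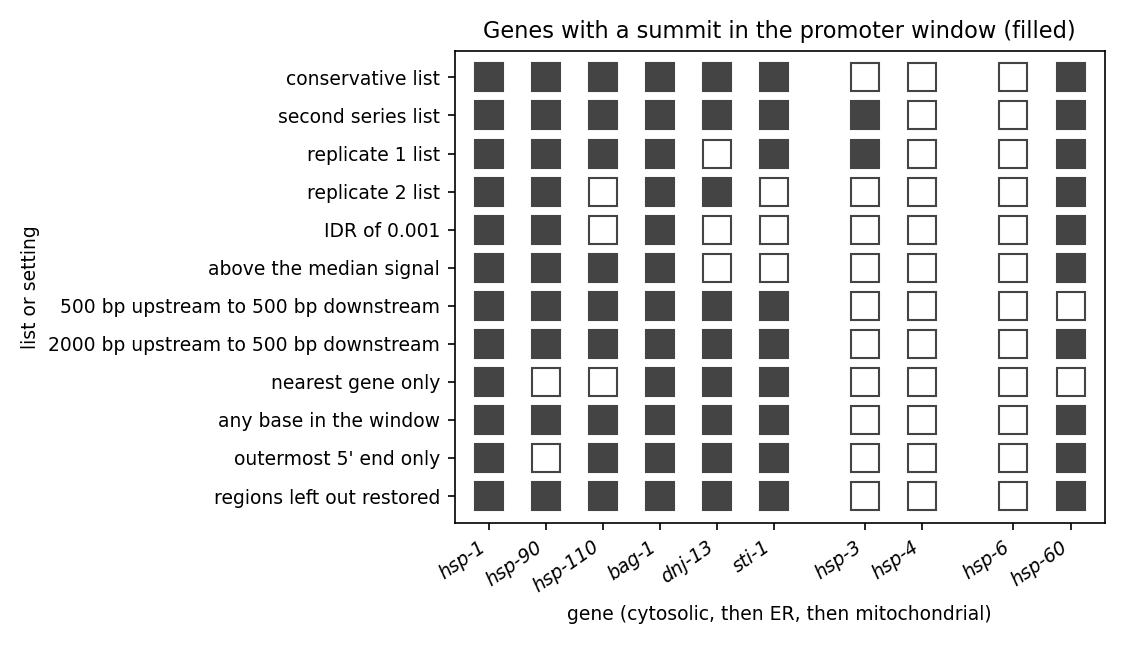
Genes with a summit in the promoter window (filled squares) in each of the 4 thresholded lists and under other settings applied to the conservative list, with genes across and lists or settings down. *hsp-1* and *bag-1* are filled in every row, *hsp-4* and *hsp-6* in none, and *hsp-3* only in the second series list and the replicate 1 list.

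A further 35 genes of the same compartments were examined beside the 10. Of these 35 chaperones, co-chaperones and proteases, 4 were bound in the conservative list, where 3.16% of all coding genes were, with 1 of 13 in the cytosol, 2 of 12 in the ER and 1 of 10 in mitochondria. In groups of this size a single bound gene is not read as a difference from that share. The cytosolic gene was *ahsa-1*, an activator of the Hsp90 ATPase, with a signal of 223 in the series, 128 in replicate 1 and 100.4 in replicate 2. Its summit lay 220 bp upstream of *ahsa-1* and 142 bp upstream of *C01G10.7*. The mitochondrial gene was *Y22D7AL.10*, through the region it shares with *hsp-60*.

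Both bound ER genes outside the 10 had a lower series signal than *hsp-90*, *bag-1*, *hsp-1* and *hsp-110*, and a higher one than *sti-1*. *pdi-6* was also above *dnj-13*. *enpl-1* encodes the Hsp90 of the ER, and its region had a signal of 99.7 in the series, 56.4 in replicate 1 and 44.9 in replicate 2, with the summit 19 bp upstream of the 5′ end and 392 bp upstream of *imp-2*, on the other strand. *pdi-6*, a protein disulfide isomerase gene, had 118 in the series, 53.2 in replicate 1 and 75.01 in replicate 2, with the summit 52 bp upstream. The ER genes with a conservative region were thus a glucose-regulated Hsp90 and an oxidoreductase, while those of BiP had none. The second series list added *pdi-3* (112), and in the cytosol the J-domain protein genes *dnj-19* (71.4) and *dnj-12* (65.5). These regions were shared too: the *pdi-3* summit lay 529 bp upstream of *ubql-1*, that of *dnj-12* 28 bp upstream of *mtx-1*, and that of *dnj-19* 48 bp downstream of the 5′ end of *nhr-47*. Like *hsp-3*, *pdi-3* was past the threshold in replicate 1 and not in replicate 2. Its signal was 87.8 in replicate 1, with 1.19% of all genes above it, and 18.3 in replicate 2, with 38.2% above. Unlike at *hsp-3*, that replicate 2 candidate overlapped the series region.

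Counting the 10 genes and the 35 together, the conservative list had a summit at 7 of 19 cytosolic genes. The ER had 2 of 14 and mitochondria 2 of 12, where 3.16% of all coding genes were bound. Both mitochondrial genes, *hsp-60* and *Y22D7AL.10*, were counted through the same region. The cytosolic count came from the 10 named genes, which were chosen with earlier results of these data known, for 6 of its 7. The co-chaperones of Hsp90 other than *sti-1* and *ahsa-1*, such as *cdc-37* and *daf-41*, which encodes p23, were not bound in any thresholded list.

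**Figure D4:**
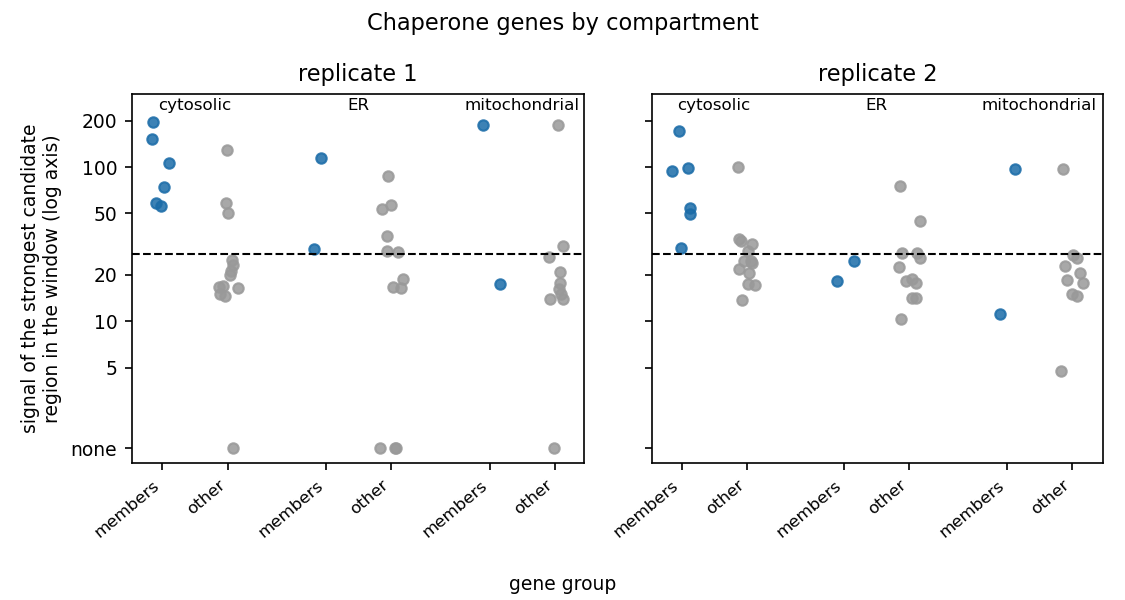
Signal of the strongest candidate region in the promoter window for the 10 named genes (blue, left of each pair) and for 35 other chaperone genes (grey), by compartment and replicate, on a log axis; "none" marks genes with no candidate and the dashed line the 90th percentile over all coding genes. The 6 cytosolic members lie above the line in both replicates, while most other genes of each compartment lie below or near it; the grey mitochondrial point near the top is *Y22D7AL.10*, which shares the *hsp-60* region.

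The sequence at the bound summits held the GAANNTTC pair of GAA units, part of the heat shock element recognised by HSF-1, in 5 of the 7 genes. It was found in 201 bp windows around the summit of *hsp-1*, *hsp-90*, *hsp-110*, *bag-1* and *dnj-13*, all of them cytosolic, and not at *sti-1* or *hsp-60*. The same motif was in 14.6% of the windows at all 728 conservative regions and in 12.7% of windows of that length just upstream of all 19973 coding genes. At *hsp-90* the match began 4 bases before the summit, at *dnj-13* 6 bases after it and at *hsp-110* 10 bases after it. At *hsp-1* it began 38 bases and at *bag-1* 88 bases after the summit. The *bag-1* match overlapped a copy of TTCTAGAA, the other arrangement of the units, by 3 bases; that arrangement was at 1 of the 7 summits and in 1.92% of conservative windows. In shorter windows of 101 bp, 4 of 7 summits had GAANNTTC, beside 7.83% of conservative windows. In longer ones of 401 bp, 6 of 7 had it, beside 28.4%.

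The windows just upstream of the genes were read in the same way. The 201 bp upstream of the outermost 5′ end were taken for each gene, whether bound or not. GAANNTTC was present there at 5 of 6 cytosolic, 0 of 2 ER and 0 of 2 mitochondrial members. Among the other genes of those compartments it was at 3 of 13, 0 of 12 and 2 of 10, beside 12.7% of all coding genes. The *hsp-90* window ends at the start of the long transcript, and the bound summit lay 857 bp downstream of that start. At *dnj-13* and *bag-1* the upstream match is the copy already counted at the summit, while *hsp-1*, *hsp-90* and *hsp-110* have copies there besides that at the summit. TTCTAGAA was there at 3 of the 6 cytosolic members, *hsp-1*, *hsp-110* and *bag-1*, against 1.35% of all genes. At *hsp-1* it began 139 bases and the overlapping GAANNTTC 144 bases upstream of the 5′ end, while the summit lay 392 bp upstream. At *hsp-110* the GAANNTTC copy near the gene began 115 bases upstream, in addition to the copy at the summit. These are matches of letters, and binding of HSF-1 was not measured.

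The upstream windows of both BiP genes held a motif that was not found in those of the other members. TGACGTG, an element of the unfolded protein response, was within 201 bp upstream of both *hsp-3* and *hsp-4*, at 132 and 83 bases from the 5′ end, and at 0 of the 6 cytosolic and 0 of the 2 mitochondrial members. Among the other chaperone genes it was upstream of 0 of 13 in the cytosol, 1 of 12 in the ER, *dnj-20*, and 0 of 10 in mitochondria, and it was present at 2.01% of all genes. At *hsp-3* it began 84 bases before the summit and was followed by CCACG, part of the ER stress response element, 75 bases before the summit. At the 7 bound summits TGACGTG was found in 0 windows and CCACG in 2, beside 2.88% and 32.7% of all conservative windows. GAGAG was at 4 of the 7 summits, beside 51.0% of conservative windows, and TATAAA at 1, beside 14.1%. GATAAG and then TGACTCA and CACGTG were each searched for and found at 0 of the 7. A region past the IDR threshold was present at *hsp-3* in replicate 1 and in the second series list. At *hsp-4* there were only candidates short of the threshold. Whether the element bears on these regions was not tested.

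The GC content of the windows at the 7 summits ran from 37.3% at *hsp-110* to 50.2% at *hsp-60*, within the range of all conservative windows, whose median was 43.0% with 5th and 95th percentiles of 31.0% and 55.7%. The window at *hsp-3*, bound in the second list and in replicate 1, had 61.7% and lay above that range. Whether base composition bears on the *hsp-3* difference between replicates was not tested.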

How the data were processed

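Per the labels, chromatin of UNC-98::GFP larvae was sheared by sonication (200 to 800 bp) before the precipitation through GFP. Per the file headers, the authors made the region lists on the build ce11 from alignments they had filtered, with a control file. Which aligner and which peak caller they ran is not given in the sources used here. Each deposited signal value is a score of a region, and the deposited −log10 of the global IDR is capped at 5; the lowest in the thresholded lists was just above 2. What separates the second series list from the conservative one is not stated here; 631 of the 728 conservative regions are in both. The series lists also have 16 columns of replicate values whose sample the files do not name, and these were left out.

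Regions were placed by the deposited summit against coding transcripts of Ensembl release 115, with pandas 2.3.3 in Python 3.11.15. The signal of a replicate is that of the region in its own ranked list with most bases shared. Motifs were exact matches on both strands. Placement was tested on simulated regions at genes with a single coding 5′ end, where 1000 of 1000 were assigned as placed. Genes with several 5′ ends, such as *hsp-90*, were not part of that check. With 1 group of 2 replicates, every result is a description, without a test. The members and gene lists were chosen with earlier results of these data known; 9 symbols were dropped from the lists of other chaperones after the files were read, because they matched no gene or their compartment was wrong or unsure. Genes named are all members, every listed gene bound in any thresholded list, and coding genes that share a window; *cdc-37*, *daf-41* and *dnj-20* were chosen after their values were seen.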

Additional observations from a re-analysis of the deposited data

How the results depend on the processing

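The second series list moved the ER members bound to 1, the other chaperones to 7 and the other cytosolic ones to 3. At an IDR of 0.001 the members bound were 4, the cytosolic members 3, the other chaperones 2 and the other ER genes 0. Regions above the median signal left 1 other ER gene. A window of 500 bp upstream left 0 mitochondrial members. With each region given to the nearest gene, 4 members, 0 mitochondrial members and 0 other cytosolic genes were bound. In the list of replicate 1 or 2 alone, 5 to 7 members were bound, with 4 to 5 cytosolic, 0 to 1 ER and 1 mitochondrial member; the other chaperones ranged from 3 to 6, with 1 to 2 cytosolic and 1 to 3 ER genes. The outermost 5′ end alone removed *hsp-90*. A window of 2000 bp, any overlap with the window, and 2 alternatives chosen after seeing the data (regions past the IDR threshold that the authors' list leaves out, and the other chaperone lists as first written) changed no count of members or other chaperones by over 1.5 times. The signals of the bound members were the same in 28 recomputations that took the nearest or the strongest overlapping region of a replicate. No paired analysis was possible because there is 1 group. The unknown depth and the 2 replicates limit how far absence from a list can be read: a gene in no list was not detected there, which does not show that it is unbound.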
